A study of Mus musculus with 2 samples.

Results

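Among 32285 genes counted, 10 make up the group of matrix proteases and inhibitors described here: the matrix metalloproteinases *Mmp2*, *Mmp9*, *Mmp14* and *Mmp15*, the tissue inhibitors of metalloproteinases *Timp1*, *Timp2* and *Timp3*, and the related proteases *Adamts1*, *Adamts9* and *Adam15*. The members were found by their symbols, and each symbol matched 1 row of the tables. Liver sinusoidal endothelial cells (LSECs) line the sieve-like capillaries of the liver. The study asked what the transcription factor c-MAF does in these cells, and single cells were sequenced from 1 control library and 1 Maf LSEC-KO library. Each library was made from a pool of 3 mice.

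The Maf LSEC-KO animals, called knockout in the following, carried the Clec4g-iCre transgene and 2 floxed *Maf* alleles (Clec4g-iCre tg/wt × Maf fl/fl). The *Clec4g* promoter drives Cre in LSECs, so that *Maf* was left intact in cells that never used this promoter. The control library is labelled WT, and the study's methods describe such controls as littermates without Cre that carried 1 or 2 floxed *Maf* alleles. The study as a whole used mice of both sexes at 3 and 6 months, and the age behind these 2 libraries is not given in the sources used here. Liver cells were freed with collagenase, passed over a density gradient and enriched with magnetic beads against CD146, a surface protein of endothelial cells.

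Matrix metalloproteinases cut collagens and other proteins of the extracellular matrix. Some are secreted as inactive precursors, and others, such as MMP14 and MMP15, are anchored in the plasma membrane. ADAMTS proteases are secreted enzymes, some of which cut proteoglycans. ADAM proteases are membrane proteins, several of which release the outer part of other membrane proteins. TIMPs bind the active site of metalloproteinases and block them, and TIMP3 is held in the matrix and also blocks ADAM and ADAMTS enzymes. In the liver these enzymes are known for matrix turnover in injury and fibrosis, where hepatic stellate cells and macrophages are common sources.

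After filtering, 4961 control and 5423 knockout barcodes remained, of which 4096 and 3114 were LSECs. LSECs had a median of 8395 unique molecular identifiers (UMIs) in the control and 14210.5 in the knockout library. Endothelial cells with a *Vwf* UMI, which were kept apart from LSECs, made up 3.78% of control and 26.8% of knockout endothelial cells. The libraries shared 10 barcodes, 4 of them LSECs in both. *Maf* was at 3473 CPM in control and 123 CPM in knockout LSECs, 28.2-fold lower, in the direction of the label. LSECs of the control held more hemoglobin RNA (1254 against 13.5 CPM over 5 erythroid genes) and more RNA of the LSEC list (18818 against 5906 CPM over 9 genes), and each of those 9 and of 14 endothelial genes was above 1 CPM in both libraries. Levels are given in CPM, the UMIs of a gene summed over the cells named and scaled to the sum of all UMIs outside mitochondrial and ribosomal protein genes.

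Because each condition is 1 library, no difference between conditions has a replicate check and none was tested. The 95% intervals given are exact and cover counting error only. A gene is called higher or lower when its level differed at least 2-fold between the libraries and its mean over both was at least 10 CPM. In LSECs 8911 genes reached that mean, of which 805 (9.03%) were higher and 378 (4.24%) were lower in the knockout library. Of the 10 members, 6 reached it: *Mmp15* and *Adamts9* were higher, *Mmp14* was lower, and *Adamts1*, *Adam15* and *Timp3* lay within 2-fold. *Mmp15* reached the mean only through its level in the knockout library. *Mmp2*, *Mmp9*, *Timp1* and *Timp2* stayed below 10 CPM, and they are described by their counts. With a mean of at least 5 CPM, *Timp1* joined the higher members and *Timp2* the lower ones, against 10.3% and 4.6% of 10100 genes, and each passed that minimum only through the library in which it was high.

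**Figure D1:**
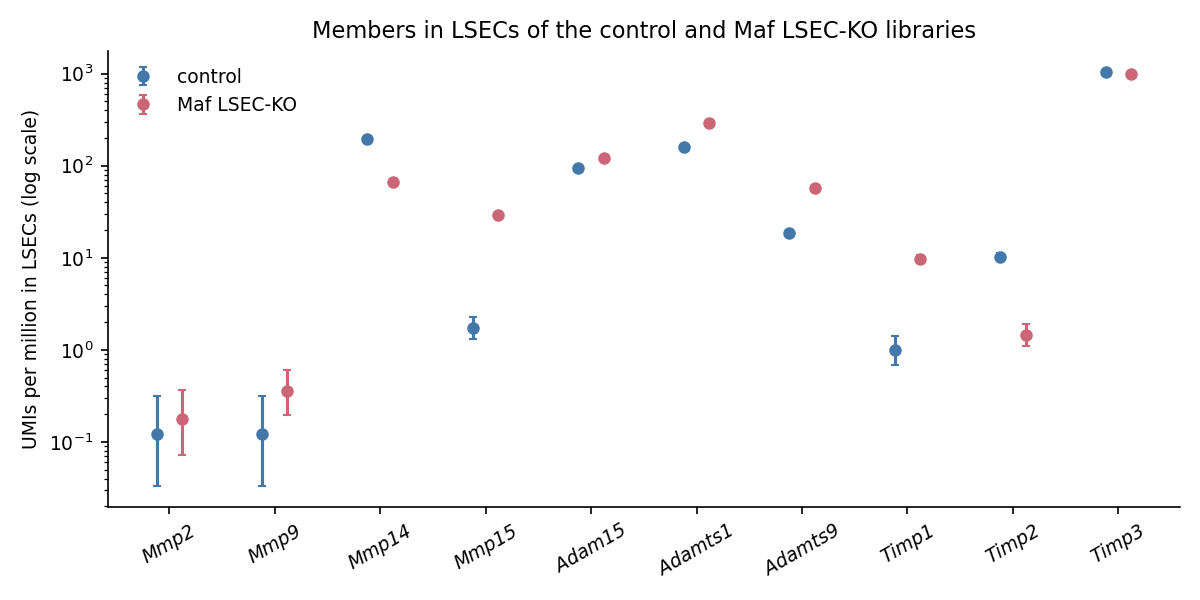
Level of each member in LSECs of the control and the knockout (Maf LSEC-KO) library, in CPM on a log axis, with exact 95% Poisson intervals as bars (counting error only, 1 library per condition). *Mmp14* is lower and *Mmp15* and *Adamts9* are higher in knockout, while the points of *Timp3* lie at 1044 and 991 CPM. The points of *Timp2* (10.2 and 1.46 CPM) and *Timp1* (1.01 and 9.68 CPM) also lie apart, with means below 10 CPM.

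The membrane-bound *Mmp14* and *Mmp15* differed in opposite directions between control and knockout LSECs. *Mmp14* (chr14:54431612-54445364, plus strand, mm10) encodes MT1-MMP, which cuts collagen at the cell surface and activates the precursor of MMP2. It was at 195 CPM (95% interval 191 to 200.2) from 6408 UMIs in control LSECs and at 66.9 CPM (64.4 to 69.6) from 2613 UMIs in knockout LSECs. The log2 ratio of knockout to control was -1.55 (-1.61 to -1.48), a level 2.92-fold lower. With the CPM of B and T/NK cell-like cells of the same library subtracted, the log2 ratio was -0.58 and no longer past 2-fold. These cells carried LSEC RNA in unequal amounts, with *Clec4g* at 2055 CPM in control and 351 CPM in knockout B cell-like cells. The subtraction therefore does not measure free RNA alone. *Mmp15* (chr8:95352268-95375080, plus strand, mm10) encodes MT2-MMP, a close relative of MT1-MMP. Control LSECs held 57 *Mmp15* UMIs (1.74 CPM, 1.32 to 2.25), and knockout LSECs held 1129 (28.9 CPM, 27.3 to 30.7). This is a log2 ratio of 4.06 (3.67 to 4.47), or 16.6-fold.

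The sequences before both start sites are shown because these are the members that went apart in LSECs, and c-MAF binds DNA. The windows are the 250 bases before the RefSeq start of each gene on GRCm38.p6, 5′ to 3′ on the gene's strand, at chr14:54431348-54431597 and chr8:95352046-95352295, both on the plus strand. Capitals mark TGCTGA, the half-site of MAF proteins, and GGGCGG, the GC box, read on either strand.
Mmp14: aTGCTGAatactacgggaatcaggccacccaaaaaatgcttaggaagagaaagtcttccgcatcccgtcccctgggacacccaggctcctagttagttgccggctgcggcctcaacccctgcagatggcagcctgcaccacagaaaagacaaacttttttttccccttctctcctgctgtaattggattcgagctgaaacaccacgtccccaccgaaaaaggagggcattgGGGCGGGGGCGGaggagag
Mmp15: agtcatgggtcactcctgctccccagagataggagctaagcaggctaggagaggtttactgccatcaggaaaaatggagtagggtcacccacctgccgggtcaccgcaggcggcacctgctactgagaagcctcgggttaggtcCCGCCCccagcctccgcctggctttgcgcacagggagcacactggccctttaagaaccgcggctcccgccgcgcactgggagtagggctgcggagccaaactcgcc
TGCTGA occurred once in the *Mmp14* window, 249 to 244 bases before the start, and not in that of *Mmp15*. Across 32851 promoter windows of this length it occurred in 16.1%, and among the 8 members with a promoter sequence (all but *Mmp2* and *Mmp9*) it occurred in that of *Mmp14* only. GGGCGG stood 2 times in the *Mmp14* window and 1 time in that of *Mmp15*, there as CCGCCC 106 to 101 bases before the start. It was found in the windows of all 8 members searched, against 32.7% of all windows. The AP-1 motif TGANTCA, present in 6.75% of windows, was found in 0 of the 8. No match overlapped a match of another motif, and a match describes letters, not binding.

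The share of LSECs with a UMI moved with the level for both genes. For *Mmp14* it was 65.1% of control and 45.5% of knockout LSECs, and 35.5% and 14% after every cell had been thinned to 2700 UMIs. T/NK cell-like cells, taken as background, had it in 10.3% of 29 control and 3.23% of 62 knockout cells, at median depths of 6892 and 5859.5 UMIs. In B cell-like cells the *Mmp14* share was 34.0% of 47 control and 2.56% of 39 knockout cells, and 10.9% and 2.56% after thinning. For *Mmp15* the share was 1.29% and 26.2% of LSECs, and 0.515% and 5.57% after thinning. No *Mmp15* UMI was found in control T/NK cell-like or in neutrophil-like cells, and 2 of 62 knockout T/NK cell-like cells had one. Knockout B cell-like cells had *Mmp15* at 23.7 CPM (7.69 to 55.3) from 5 UMIs in 3 of 39 cells, an interval that overlaps the level of knockout LSECs, and the control ones had 0 UMIs. With lymphocyte-like CPM subtracted the log2 ratio of *Mmp15* in LSECs was 3.23. The *Mmp15* UMIs of the knockout library were spread over 817 LSECs, with at most 6 in 1 cell. In that library 19 thinned LSECs held UMIs of both genes, where independent detection would give 22.9.

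*Adam15* (chr3:89338542-89349996, minus strand, mm10), a membrane ADAM that binds integrins, was at 93.7 CPM (90.4 to 97.1) in the control and 122 CPM (119 to 126) in knockout LSECs, from 3073 and 4773 UMIs. Its log2 ratio was 0.38 (0.32 to 0.45), within 2-fold and below that of *Mmp15*. It was found in 45.0% and 62.3% of LSECs, a gap that narrowed to 18.8% and 22% after thinning. B cell-like cells, which carried LSEC RNA as described further on, had it in 36.2% of 47 control and 12.8% of 39 knockout cells, and in 15.2% and 2.56% after thinning. The same subtraction of lymphocyte-like CPM gave a log2 ratio of 1.31.

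Both ADAMTS members were higher in knockout LSECs, and 1 of them passed 2-fold. *Adamts1* (chr16:85793827-85803113, minus strand, mm10) encodes a proteoglycan-cutting enzyme also known for restraining blood vessel growth. It was at 160 CPM (155 to 164) in the control and 289 CPM (284 to 294) in knockout LSECs, a log2 ratio of 0.85 (0.81 to 0.90), which passed 2-fold with the lymphocyte-like (1.65) or neutrophil-like (1.05) CPM subtracted. *Adamts9* (chr6:92772699-92943492, minus strand, mm10) encodes a related enzyme of the same family that is also expressed in endothelium. It went from 18.6 CPM (17.2 to 20.2) and 611 UMIs to 57.1 CPM (54.8 to 59.6) and 2230 UMIs, a log2 ratio of 1.62 (1.49 to 1.75). *Adamts9* overlaps an antisense gene, 9530026P05Rik, whose own count went the other way (352 and 164 UMIs). After thinning, 25.7% of control and 34.2% of knockout LSECs had an *Adamts1* UMI, and 4.25% and 9.78% had an *Adamts9* UMI. The thinned shares in B cell-like cells were 10.9% and 2.56% for *Adamts1* and 2.17% and 0% for *Adamts9*. Among knockout cells 119 thinned LSECs had both, where independent detection would give 98.5, and in the control 37 had both against 40.4.

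The inhibitors differed from each other. *Timp3* (chr10:86300372-86349506, plus strand, mm10), whose protein stays bound to the matrix, was at 1044 CPM (1033 to 1055) in the control and 991 CPM (981 to 1001) in knockout LSECs. Its log2 ratio of -0.08 (-0.10 to -0.05) is narrow in counting error, from 34244 and 38679 UMIs, and its sign changed with the processing. *Timp3* lies over *Syn3* on the opposite strand, which held 568 and 657 UMIs. *Timp1* (chrX:20870166-20874735, plus strand, mm10), a secreted inhibitor known to accompany liver fibrosis, was at 1.01 CPM (0.693 to 1.41) in the control and 9.68 CPM (8.73 to 10.7) in knockout LSECs. The log2 ratio was 3.27 (2.75 to 3.83), or 9.62-fold, from 33 and 378 UMIs. In endothelial cells with a *Vwf* UMI, *Timp1* was at 6.95 CPM in control and 8.87 CPM in knockout. The log2 ratio there was 0.35 (-0.49 to 1.34), an interval that includes no difference. The 33 control UMIs came from 20 LSECs, and 4 of these cells held at least 50% of them, whereas the 378 came from 310 LSECs. After thinning, 0.136% of control and 1.49% of knockout LSECs had a *Timp1* UMI, and T/NK cell-like and neutrophil-like cells had none in either library.

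*Timp2* (chr11:118301069-118355740, minus strand, mm10), the inhibitor that also takes part in activation of MMP2 by MT1-MMP, was at 10.2 CPM (9.15 to 11.4) in the control and 1.46 CPM (1.11 to 1.89) in knockout LSECs. The log2 ratio was -2.81 (-3.24 to -2.40), from 335 and 57 UMIs. These control UMIs were gathered in few cells: 122 LSECs had any, a single cell had 121, and 2 cells held at least 50%. The 44 control LSECs (1.07%) in which 2 or more of 7 stellate genes (*Col1a1*, *Col3a1*, *Colec11*, *Dcn*, *Lrat*, *Reln*, *Rgs5*) were found held 52.2% of the *Timp2* and 36.4% of the *Timp1* UMIs of control LSECs. Of the knockout LSECs, 20 (0.642%) met that rule and held 7.02% and 0.529%. Without those cells the log2 ratio was -1.86 for *Timp2* and 3.90 for *Timp1*. The summed level of 13 stellate markers in LSECs was 120 CPM in control, with 8 genes above 1 CPM, and 41.2 CPM in knockout, with 4 above 1 CPM, and none of the 13 was at 0 in either. A *Timp2* UMI was found in 2.98% of control and 1.57% of knockout LSECs, and in 17.2% and 22.6% of T/NK cell-like cells. After thinning, 1.30% and 0.204% of LSECs had one, against 0% of 23 control and 12.1% of 58 knockout T/NK ones. With *Timp2* at 34.2 and 61.2 CPM, above LSECs in both libraries, the T/NK type gives no measure of background for this gene. Whether the LSEC share exceeds background was not tested.

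The secreted *Mmp2* and *Mmp9* were close to absent from LSECs and marked other cells. *Mmp2* (chr8:92827291-92853420, plus strand, mm10) encodes gelatinase A and had 4 UMIs in control and 7 in knockout LSECs. Its level was highest in hepatic stellate or mesenchymal-like cells, at 13 CPM (6.72 to 22.7) from 12 UMIs in 66 control cells and 19.1 CPM (10.9 to 31.0) from 16 UMIs in 84 knockout cells. In the control the interval overlapped that of cholangiocyte-like cells, while in the knockout library it lay clear of the next named type with UMIs (macrophage-like cells, 2.17 CPM) but overlapped B cell-like cells, whose 0 UMIs allow up to 17.5 CPM. A further 96 knockout cells overlapped it too, with *Mmp2* at 15.5 CPM (8.01 to 27.1) from 12 UMIs. These cells pool 3 unlike clusters that stayed unnamed, 1 led by *Ccl21a*, *Upk3b* and *Msln* and the others by the platelet genes *Ppbp*, *Pf4* and *Gp9* beside hepatocyte genes. *Mmp9* (chr2:164940780-164955850, plus strand, mm10) encodes gelatinase B, which neutrophils store in granules. Neutrophil-like cells had it at 1471 CPM (1289 to 1671) in the control and 1598 CPM (1473 to 1730) in knockout. These 40 and 86 cells held 96.3% and 91.7% of the *Mmp9* UMIs of their libraries, and 87.5% and 96.5% of them had a UMI. Between the libraries the log2 ratio in neutrophil-like cells was 0.12 (-0.10 to 0.34). LSECs had 4 and 14 *Mmp9* UMIs, and the summed level of 8 neutrophil markers in LSECs was 8.14 CPM in control and 28.5 CPM in knockout, where 3 and 5 of them were above 1 CPM and *Mmp9* was not among them. The part of free neutrophil RNA in these counts was not tested.

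**Figure D2:**
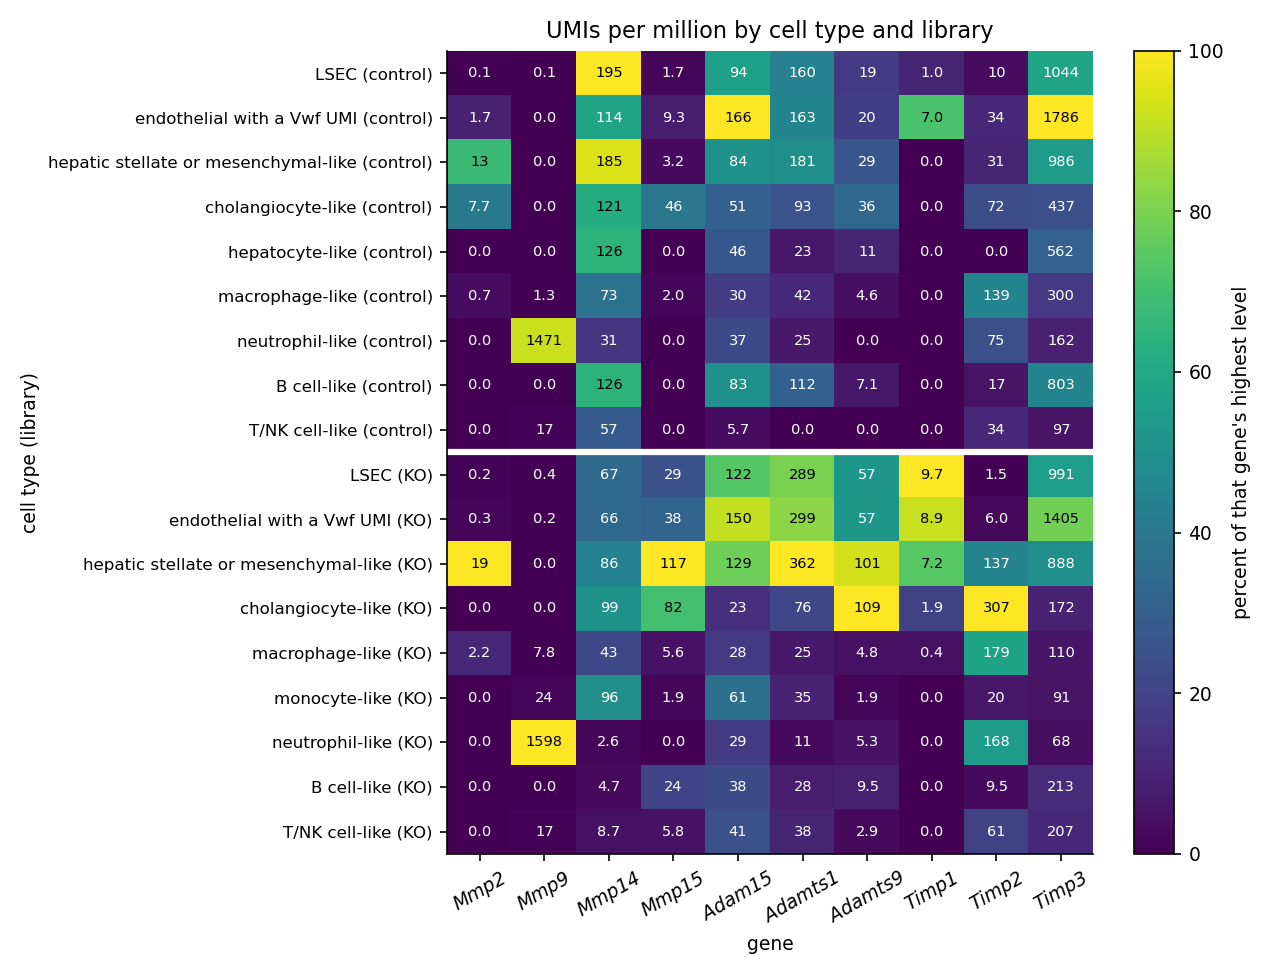
Level of each member (columns) in each cell type and library (rows, KO for knockout); the printed number is the CPM and the colour its percentage of that gene's highest level. *Mmp9* stands out in neutrophil-like cells (1471 and 1598 CPM) and *Timp3* in endothelial cells with a *Vwf* UMI (1786 and 1405 CPM).

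The other members showed different orders over cell types, which were rebuilt here from marker genes and can differ from those of the study. In the control, *Mmp14* was highest in LSECs (195 CPM), within its counting interval of stellate-like cells (185 CPM), and lowest in neutrophil-like cells (31.2 CPM). The interval of hepatocyte-like cells (126 CPM, 62.9 to 226, from 11 UMIs in 32 cells) overlapped that of LSECs too. In the knockout library, LSECs (66.9 CPM) and *Vwf* endothelial cells (65.7 CPM) came after cholangiocyte-like (99.3 CPM), monocyte-like (96.3 CPM) and stellate-like cells (86.0 CPM), with overlapping intervals between neighbours. The monocyte-like cluster was also led by *Cd209a* and MHC class II genes, so its name is uncertain. The level of *Mmp14* in B cell-like cells was 126 CPM in control and 4.74 CPM in knockout. The LSEC gene *Clec4g* was at 2055 CPM in those control B cell-like cells and at 351 CPM in the knockout ones, against 3019 and 1533 CPM in LSECs, and what LSEC RNA adds to *Mmp14* in B cell-like cells was not tested.

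*Mmp15* was highest in cholangiocyte-like cells of the control, at 46.3 CPM (27.4 to 73.2) from 18 UMIs in 46 cells, clear of the next type (*Vwf* endothelial cells at 9.27 CPM) but overlapping the hepatocyte-like cells, whose 0 UMIs in 32 cells allow up to 42.3 CPM. In the knockout library it was highest in stellate-like cells, at 117 CPM (95 to 143) from 98 UMIs in 84 cells, with cholangiocyte-like cells next at 82.1 CPM (59.4 to 111). Stellate-like cells of the control had 3 *Mmp15* UMIs (3.25 CPM, 0.67 to 9.49), and the log2 ratio there was 5.17 (3.58 to 7.47). In knockout stellate-like cells 51.2% had a UMI, and their level exceeded that of LSECs (28.9 CPM) and *Vwf* endothelial cells (37.7 CPM) of the same library. These clusters also carried endothelial RNA, in unequal amounts: *Pecam1* was found in 97.0% of control and 85.7% of knockout stellate-like cells, and *Clec4g* was at 2821 and 461 CPM. Both stellate-like clusters were led by *Dcn*, *Cxcl12* and *Colec11*, the control one also by *Reln* and *Rgs5* and the knockout one by *Acta2*, *Tagln* and *Myh11*. The stellate-like ratios can therefore set unlike cells beside each other. The part of LSEC RNA in the *Mmp15* ratio, and in those of the ADAMTS genes in the same clusters, was not tested.

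*Adamts1* and *Adamts9* were also higher in knockout stellate-like cells, at 181 and 362 CPM (log2 ratio 1.0, 0.72 to 1.28) and at 29.2 and 101 CPM (1.79, 1.16 to 2.48). *Adamts9* in cholangiocyte-like cells was at 36.0 CPM (19.7 to 60.4) and 109 CPM (82.4 to 141). At a clustering resolution of 0.5 the control cholangiocyte-like cells had *Adamts9* at 57.9 CPM (30.8 to 99.0) and *Mmp15* at 75.7 CPM (44.1 to 121). *Adam15* was highest in *Vwf* endothelial cells, at 166 CPM in control and 150.1 CPM in knockout, and its interval overlapped that of the next type only in the latter. *Timp3* was highest in *Vwf* endothelial cells (1786 and 1405 CPM), followed among named types by LSECs and stellate-like cells (986 and 888 CPM), whose intervals overlapped in the control. At a clustering resolution of 0.5 control stellate-like cells had *Timp3* at 1352 CPM (1292 to 1414), above LSECs at 1042 CPM (1031 to 1053). The unnamed knockout cells had it at 1346 CPM (1266 to 1431), above LSECs. T/NK cell-like cells had *Timp3* at 96.9 and 207 CPM.

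*Timp2* was lower in LSECs than in most other cell types. In the control it was highest in macrophage-like cells, at 139 CPM (121 to 159) from 211 UMIs, with neutrophil-like cells (74.8 CPM, 38.6 to 131) next and overlapping. At a clustering resolution of 0.5 stellate-like cells came first in the control instead. Knockout cholangiocyte-like cells were first among the named types of their library at 307 CPM (262 to 359), then macrophage-like cells at 179 CPM (162 to 197). It was higher in knockout cholangiocyte-like cells (log2 ratio 2.09, 1.51 to 2.73), whereas the ratio was 0.36 (0.12 to 0.61) in macrophage-like cells. In stellate-like cells the ratio depended on the clustering. It was 2.13 (1.53 to 2.77) as clustered here, from 31.4 CPM in 66 control cells, and -0.17 (-0.49 to 0.15) at a clustering resolution of 0.5, which put 111 control cells in this type at 165 CPM. The ratio in cholangiocyte-like cells at that resolution was 1.72 (1.06 to 2.45), and that of *Mmp15* in stellate-like cells 4.54 (3.45 to 5.89). The LSEC gene *Clec4g* differed between the compared clusters, at 1752 and 26.7 CPM in control and knockout cholangiocyte-like cells and at 2821 and 461 CPM in stellate-like cells, and the part of LSEC RNA in these ratios was not tested. The 96 unnamed knockout cells had *Timp2* at 641 CPM (586 to 700) and *Timp1* at 43.9 CPM (30.4 to 61.4), pooled levels over 3 unlike clusters. Only 26.0% of these cells had a *Timp2* UMI.

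The endothelial cells were also split into classes by marker clusters: central, portal, cycling and all others, with *Vwf* cells included. The others of the knockout library take in a cluster led by S-phase genes (*Ung*, *Hells*, *Mcm5*; 509 cells before doublets were removed), which was not counted as cycling. Before doublets were removed, 62 of 504 central and 68 of 229 portal cells of the control had a *Vwf* UMI. In the knockout library 161 of 180 and 269 of 381 had one, so the class ratios do not compare cells of like make-up. *Mmp14* was lower in every class, by a log2 ratio of -1.57 (-1.63 to -1.5) in the others, -1.46 (-1.72 to -1.21) in central, -1.46 (-1.65 to -1.26) in cycling and -0.54 (-0.81 to -0.27) in portal cells. Portal cells of the control started from 99.0 CPM, against 195 CPM in central cells and 199.8 CPM in the others, and in the knockout library the 4 classes lay between 59.6 and 70.9 CPM. *Mmp15* was higher in all 4 classes, from 1.92 (1.32 to 2.60) in portal to 5.84 (3.35 to 11.2) in cycling cells, where the control held 1 UMI. Portal cells had the highest *Mmp15* level of the classes in both libraries, 12.9 and 49.0 CPM.

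*Adamts9* had a log2 ratio between 1.33 and 1.65 in the 4 classes, and *Adamts1* between 0.39 (cycling) and 0.99 (others). *Timp1* had 3.84 (3.10 to 4.69) in the others, 1.69 (0.76 to 2.64) in central and 1.03 (-0.08 to 2.33) in portal cells, where the interval includes no difference. *Timp2* in the control was at 54.4 CPM in central cells against 3.82 CPM in the others, and central cells also had more of the stellate gene *Dcn*, at 77.9 against 5.07 CPM. Its log2 ratio was -1.93 (-2.53 to -1.38) in central cells and -1.5 (-2.0 to -1.01) in the others, whereas the intervals in portal (-0.61, -1.24 to 0.04) and cycling cells (-0.50, -1.97 to 1.17) include no difference. *Timp3* was higher in portal (0.21) and other cells (0.18) and lower in central (-0.26) and cycling cells (-0.44), each within 2-fold.

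**Figure D3:**
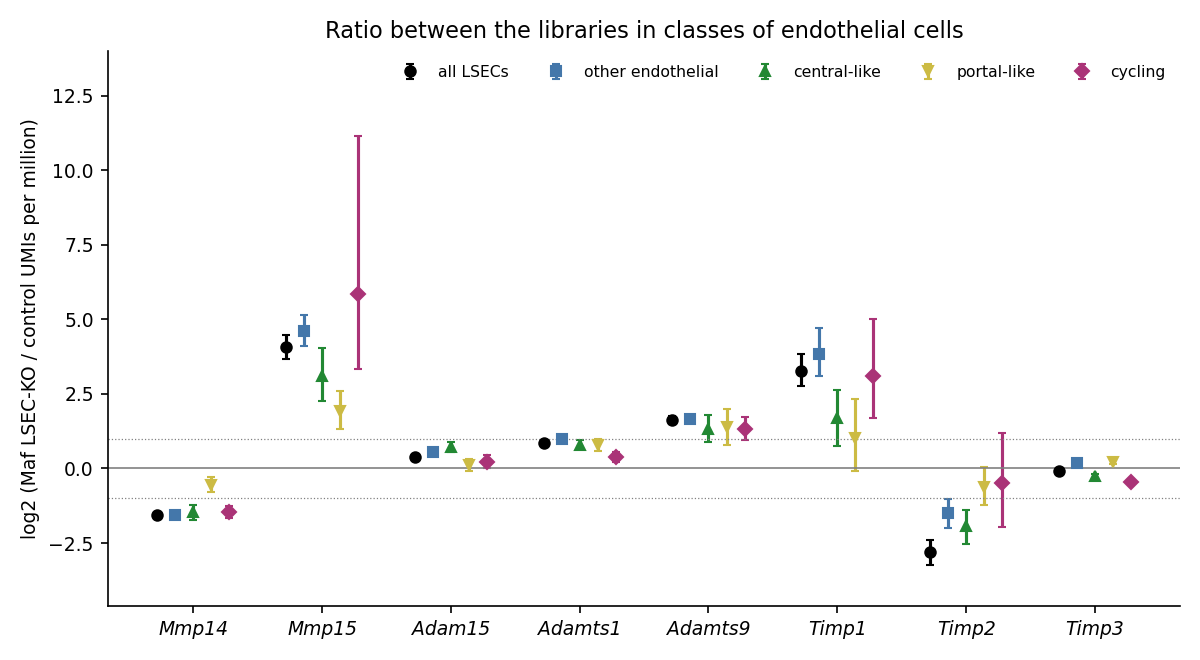
Log2 ratio of knockout to control for the members other than *Mmp2* and *Mmp9*, in all LSECs and in 4 endothelial classes (points), with exact 95% intervals as bars (counting error only) and dotted lines at 2-fold. *Mmp14* lies below 0 and *Mmp15* and *Adamts9* above 0 in each class, and *Timp3* lies within the dotted lines.

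Within the knockout library, LSECs differed in how much *Maf* RNA they kept. *Mmp14* was higher in those with at least 5 *Maf* UMIs than in those with 0. Of 3114 LSECs, 2455 had 0 *Maf* UMIs and 198 had at least 5. *Mmp14* was at 59.0 CPM (56.2 to 61.8) in LSECs with 0, at 139 CPM (128 to 151) in the 325 with at least 2 and at 222 CPM (201 to 243) in those with at least 5. The 325 include the 198, which held 442 of their 564 *Mmp14* UMIs, so the 139 CPM is not a separate step. The log2 ratio of the cells with at least 5 to those with 0 was 1.91 (1.76 to 2.06), and the level of the control library was 195 CPM. *Mmp15* went the other way, from 30.8 CPM (28.9 to 32.9) with 0 to 11.5 CPM (7.31 to 17.3) with at least 5 *Maf* UMIs, a log2 ratio of -1.42 (-2.08 to -0.82). Its level in those cells stayed above the 1.74 CPM of the control. *Timp1* was at 9.61 CPM with 0, at 8.16 CPM (5.62 to 11.5) with at least 2 and at 2.0 CPM (0.546 to 5.13, 4 UMIs) with at least 5. For the cells with at least 2 *Maf* UMIs its log2 ratio to those with 0 was -0.24 (-0.80 to 0.29), an interval that includes no difference.

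*Adamts1*, *Adamts9* and *Adam15* differed less between these cells. *Adamts1* was at 285 CPM (279 to 291) in LSECs with 0 and 295 CPM (272 to 320.0) in those with at least 5 *Maf* UMIs, both above the 160 CPM of the control. *Adamts9* was at 58.6 and 47.1 CPM, a log2 ratio of -0.31 (-0.63 to -0.01), and *Adam15* at 123 and 127 CPM (0.04, -0.15 to 0.22). The median depth was 14065 UMIs in LSECs with 0 and 9924 UMIs in those with at least 5. The part of this difference in depth in the levels was not tested.

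The merged LSECs of both libraries, clustered without the members and the related genes, gave 7 clusters, each filled mainly from 1 library. Control LSECs filled clusters 1, 4, 5 and 6 (led by *Rnase4*, *Cyp26b1* and, in the last pair, hemoglobin genes), and knockout LSECs filled clusters 2 (*Ly6c1*, *Serping1*), 3 (*Astn1*, *Kcne3*, *Esm1*) and 7 (cycling genes). The few knockout cells within clusters 1, 4, 5 and 6, between 36 and 60 a cluster, had *Mmp14* at 257, 266, 301 and 159 CPM, against 53.6, 70.1 and 56.8 CPM in clusters 2, 3 and 7. *Mmp15* in the same cells was at 1.54, 13.5, 15.8 and 0 CPM, against 31.4, 31.1 and 25.5 CPM. The level in cluster 1 (0.039 to 8.59) rests on 1 UMI in 60 cells. The levels in clusters 4 (4.96 to 29.4) and 5 (3.27 to 46.3) rest on 6 and 3 UMIs. Their intervals overlap those of clusters 2, 3 and 7. The 0 in cluster 6 rests on 54 cells and allows up to 15.8 CPM.

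Between the knockout clusters themselves, *Adamts1* and *Adamts9* were higher in cluster 3 (414 CPM, 402 to 425, and 75 CPM, 70.1 to 80.1) than in cluster 2 (229 CPM, 222 to 236, and 43.4 CPM, 40.3 to 46.7). Cluster 3 was led by early response genes such as *Egr1* as well. *Adam15* had the reverse order, at 112 CPM (106 to 118) in cluster 3 and 134 CPM (128 to 140) in cluster 2. *Timp1* was highest in the cycling cluster, at 15.6 CPM (13.2 to 18.4) against 8.55 and 7.60 CPM in clusters 2 and 3. *Timp3* was lowest there, at 691 CPM (674 to 708).

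**Figure D4:**
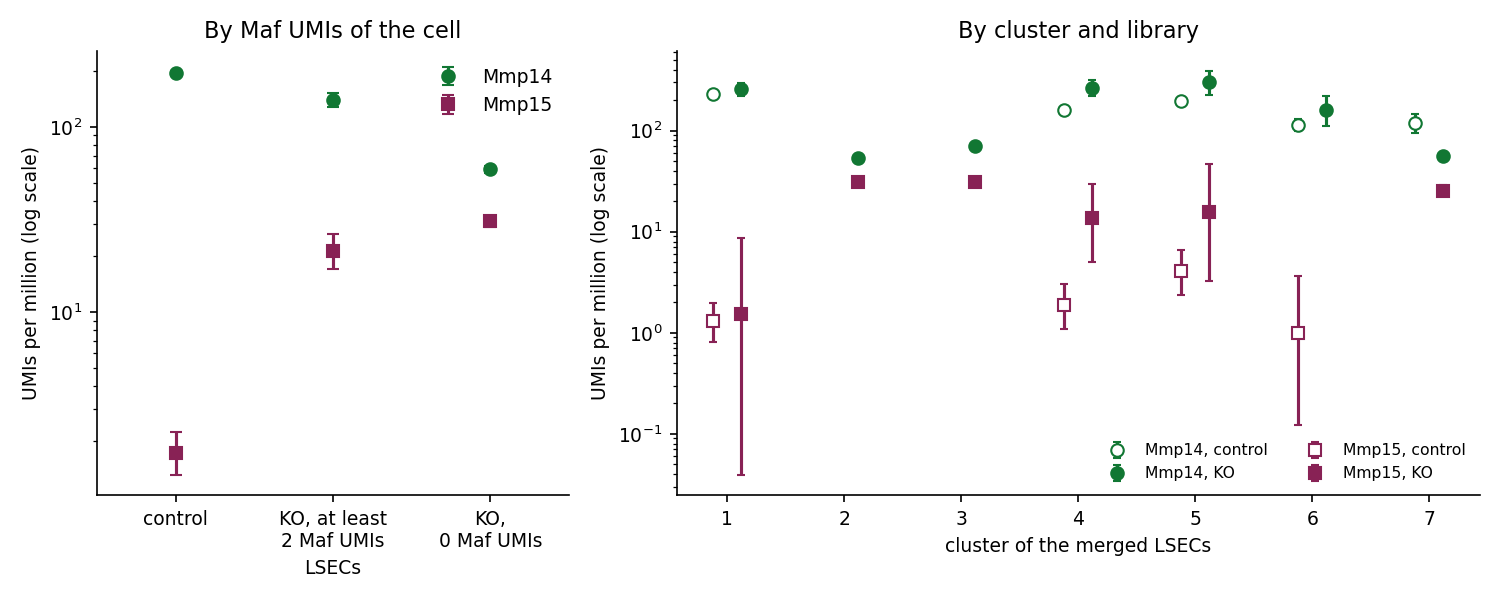
Levels of *Mmp14* (circles) and *Mmp15* (squares) in LSECs of the control and in knockout LSECs with at least 2 or with 0 *Maf* UMIs (left), and in the clusters of the merged LSECs by library (right), in CPM on log axes with exact 95% intervals as bars; levels of 0 and groups of under 20 cells are not drawn. *Mmp14* is at 195 CPM in the control and at 139 and 59.0 CPM in the 2 knockout groups, and *Mmp15* at 1.74, 21.3 and 30.8 CPM. The cells with at least 2 *Maf* UMIs include those with at least 5.

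LSECs were also ordered from the central vein to the portal tract by a score from landmark genes, with the members left out, and cut into 4 equal bins. In the control, *Timp3* was highest in the pericentral bin (1356 CPM, 1331 to 1382), with 911, 870.1 and 1079 CPM in the following bins. In the knockout library it was highest in the periportal bin (1293 CPM, 1267 to 1319), with 939 CPM in the pericentral one. The log2 ratio of the pericentral to the periportal bin was 0.33 (0.29 to 0.37) and -0.46 (-0.50 to -0.42). With the starting landmarks alone, the knockout ratio of *Timp3* was -0.01 (-0.05 to 0.03). *Adam15* kept a pericentral excess in both libraries, with ratios of 0.57 (0.42 to 0.73) and 0.73 (0.60 to 0.87), and its levels went down from bin to bin, from 113 to 75.9 CPM and from 151 to 90.8 CPM.

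*Mmp14* had a ratio of 0.32 (0.21 to 0.42) in the control and -0.05 (-0.21 to 0.11) in the knockout library. *Mmp15* had -0.30 (-1.25 to 0.65) from few UMIs in the control and -0.48 (-0.75 to -0.22) in knockout. *Adamts1* had 0.42 (0.30 to 0.54) and 0.15 (0.06 to 0.23), and *Adamts9* 0.17 (-0.20 to 0.54) and -0.22 (-0.41 to -0.03). After thinning, the control ratio of *Adamts1* was 0.21 (-0.01 to 0.43). Its knockout ratio was -0.05 (-0.13 to 0.02) with the starting landmarks alone and -0.10 (-0.30 to 0.10) after thinning. The knockout ratio of *Mmp15* was -0.20 (-0.43 to 0.04) and -0.51 (-1.15 to 0.12), and that of *Adamts9* -0.33 (-0.49 to -0.17) and -0.41 (-0.88 to 0.05). The difference between libraries was not tested. In the knockout library the bins also differed in *Maf* itself, at 315 CPM in the pericentral and 41.0 CPM in the periportal bin, against 3423 and 3211 CPM in the control, so position and remaining *Maf* RNA cannot be told apart there. The landmark sets differed too, with 33 central and 12 portal genes in the control and 8 and 26 in knockout.

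**Figure D5:**
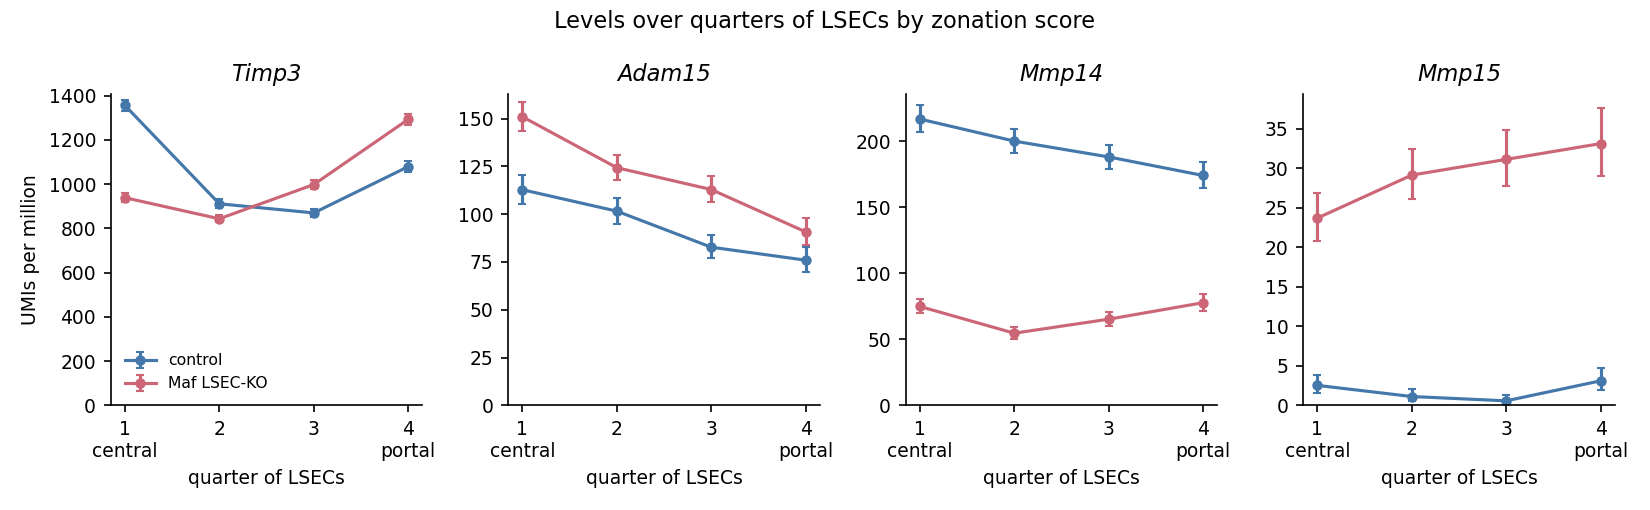
Levels of *Timp3*, *Adam15*, *Mmp14* and *Mmp15* in 4 bins of LSECs from pericentral to periportal, per library, in CPM with exact 95% intervals as bars. *Timp3* is highest in the pericentral bin of the control (1356 CPM) and in the periportal bin of knockout (1293 CPM), and *Adam15* declines along the axis in both.

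A wider list of 79 further proteases, inhibitors and cofactors of matrix turnover set the members beside their relatives. The files held 78 of them, and 13 had a mean of at least 10 CPM in LSECs, of which 2 were higher, 3 lower and 8 within 2-fold, beside the 9.03% and 4.24% of all genes compared. Their median log2 ratio was 0.08, against 0.13 over all 8911 genes. None of the 18 other MMP genes counted reached 10 CPM. The higher genes were *Plaur*, the urokinase receptor, at 7.84 and 28.4 CPM (log2 ratio 1.86, 1.66 to 2.06), which reached the mean only through the knockout library, and *Pcolce*, which enhances procollagen processing, at 28.3 and 80.5 CPM (1.51, 1.40 to 1.61).

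The lower genes were the serine peptidase *Dpp4* at 834 and 85.4 CPM (-3.29, -3.34 to -3.24), the heparanase gene *Hpse* at 60.5 and 26.0 CPM (-1.22, -1.33 to -1.11) and *Adam9* at 50.4 and 22.4 CPM (-1.17, -1.29 to -1.05). The sheddase genes *Adam10* (0.15, 0.11 to 0.20) and *Adam17* (0.20, 0.12 to 0.27) lay within 2-fold. Of the 17 other ADAMTS genes only *Adamts7* and *Adamts10* reached 10 CPM, at log2 ratios of -0.38 and 0.12, so neither shared the ratio of *Adamts9*.

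For each member with at least 200 UMIs in all, the genes with the most similar levels were found over 22 groups of cells (named cell types by library, with the endothelial cells as 4 classes) among 13853 genes, by Pearson's r of log2(CPM + 1). The groups of a library share its free RNA and depth, so r is a description. *Mmp14* was most like *Lpar6* (0.90), *Lrrc8b* (0.90) and *Qser1* (0.90), and *Mmp15* most like *Cyb561* (0.93), *Palmd* (0.91) and *Ift81* (0.90). *Adamts1* and *Adam15* were among the 3 most like each other (0.91), *Adamts1* with *Ctbp2* (0.92) first and *Bag3* (0.91) after *Adam15*. *Adam15* was followed by *Gm32688* (0.91) and *Slc26a10* (0.90). *Adamts9* was most like *Ccn1* (0.96), *Dbn1* (0.92) and *Cav1* (0.91).

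*Timp3* had the closest likeness of all members, with the caveolar gene *Cavin2* (0.98), followed by *Dock6* (0.96) and *Gng11* (0.96). *Mmp9* was most like *Cd101* (0.97), *Aqp9* (0.95) and *Anxa11os* (0.95). The inhibitors with low levels in LSECs had the weakest matches, *Timp1* with *Msx1* (0.84), *Edn1* (0.83) and *Gulp1* (0.83), and *Timp2* with *Dtx4* (0.78), *Fam129a* (0.78) and *Ezr* (0.75). *Mmp2* had too few UMIs for this measure.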

How the data were processed

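The files deposited by the authors hold raw UMI counts of 10x 3′ libraries, made with Cell Ranger 6.0.2 on mm10. Every barcode in them has 500 or more UMIs. The study's correction for empty droplets was neither found in these counts nor applied to them. No column of another sample was present (0).

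Cells with 1500 or more UMIs and 750 or more genes (the study's limits) were clustered per library with Seurat 5.3.0 in R 4.3.3 (16 and 20 principal components, resolution 0.3). Scrublet in scanpy 1.11.5 marked 0 doublets by its automatic limit in either library, so the highest scores were removed at the expected rates (4.53% and 5.67%; 225 and 308 cells), a choice made after the scores were seen. Cell types were named with the ending -like from at least 3 markers among the 50 leading genes of a cluster, clusters short of that, with more markers of another type among the 10 leading genes, or shallow with none of their own there, stayed unnamed, and endothelial cells with a *Vwf* UMI were left out of LSECs. Single LSECs held 1512 to 53852 UMIs in the control and 1506 to 103948 in Maf LSEC-KO. Merged LSECs were clustered with sctransform 0.4.2 (22 principal components), with the members and the wider list left out of the variable genes.

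UMIs were summed over cells and divided by the sums of all genes but mitochondrial and ribosomal protein ones (32793895 for control LSECs, 39037871 for Maf LSEC-KO LSECs). Intervals at the 95% level, Poisson for sums, conditional binomial for ratios and Clopper-Pearson for shares, were computed with scipy 1.17.1. They cover counting error only, and a count of 0 was given a limit from the same interval. The steps were tested on simulated data. For comparisons at like depth, cells were thinned to 2700 UMIs. Promoters are from RefSeq, GRCm38.p6, and positions from the mm10 annotation.

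With 1 library per condition no test between conditions was made. Named genes were the members, *Maf*, wider list genes at least 2-fold apart with a mean of at least 10 CPM, the 3 genes most like each member, and the stellate genes used as a filter. *Adam10*, *Adam17*, *Adamts7*, *Adamts10*, overlapping genes, markers and leading genes of clusters were added after their values were seen. The members and lists were chosen with earlier results of these data known. Alternatives were other scalings, filters, depths, clusterings, cell selections and subtraction of the CPM of lymphocyte-like or neutrophil-like cells.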

Additional observations from a re-analysis of the deposited data

Results flagged for a closer look

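*Timp2* differed in opposite directions between cell types. In LSECs the log2 ratio of the knockout (Maf LSEC-KO) to the control library was -2.81 and in endothelial cells with a *Vwf* UMI it was -2.50, whereas it was 2.09 in cholangiocyte-like and 2.13 in hepatic stellate or mesenchymal-like cells. At a clustering resolution of 0.5 the ratio was -0.17 in stellate-like and 1.72 in cholangiocyte-like cells, so the opposite direction in stellate-like cells depended on which control cells were given that name. The ratio in LSECs at that resolution was -1.68 (-2.15 to -1.23), from 153 control UMIs. As clustered here, control LSECs had 335 *Timp2* UMIs, and 2 cells held at least 50% of them. The difference between these ratios was not tested, since each comes from 1 library per condition. The LSEC gene *Clec4g* differed between the same clusters, at 1752 CPM in control and 26.7 CPM in knockout cholangiocyte-like cells and at 2821 and 461 CPM in stellate-like cells, and the part of LSEC RNA in the ratios was not tested.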

How the results depend on the processing

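In LSECs, *Mmp15* (log2 ratio 3.23 to 4.73), *Adamts9* (1.42 to 1.93), *Timp1* (2.86 to 3.98) and *Timp2* (-3.08 to -1.46) stayed past 2-fold in the same direction under every alternative that gave a value (19, 19, 18 and 17 of them). *Timp1* gave no value with the 20 richest cells left out, nor did *Timp2* with lymphocyte-like or neutrophil-like CPM subtracted, since those exceed its level in LSECs. *Mmp14* ranged from -1.74 to -0.58 and left the 2-fold range only with the CPM of lymphocyte-like cells subtracted. *Adamts1* ranged from 0.66 to 1.65, with 2 of 19 alternatives past 2-fold, and *Adam15* from 0.19 to 1.31, with 1. *Timp3* ranged from -0.27 to 0.80 and kept its sign in 13 of 19. Scaling by the UMIs of all genes moved the median log2 ratio of all genes by -0.19, median of ratios by -0.13, TMM by -0.12, and subtraction of lymphocyte-like and neutrophil-like CPM by 0.48 and 0.15.

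With lymphocyte-like CPM subtracted, 4 members were higher and 0 lower (2 and 1 as reported), 4 and 1 genes of the wider list (2 and 3), and 1438 genes in all were higher (805). Subtraction of neutrophil-like CPM left 1 wider list gene higher, with 1596 genes higher and 674 lower in all. At a mean of at least 5 CPM, 2 members were lower, and without the filter 17 wider list genes were higher and 17 lower. Scaling by all UMIs gave 513 higher genes, a 1.5-fold limit 1797 higher and 860 lower, and a minimum of 50 CPM 267 and 198. With the starting landmarks only, the control ratio of the pericentral to the periportal bin turned from 1.61 to -1.92 for *Timp1* and from 3.54 to -1.30 for *Timp2*. The cause of these shifts was not tested. The cell type with the highest level changed at resolution 0.5 for *Timp1* and *Timp2* in the control (to stellate-like) and with doublets kept for *Mmp14* in Maf LSEC-KO (to monocyte-like). Some choices (clusters or cells left out or added, the 5 CPM minimum and the neutrophil-like subtraction) were added after the data were seen. No paired analysis was possible because each condition is 1 library.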
